A study of Mus musculus with 8 samples.

Results

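The 10 genes described here encode 7 matrix metalloproteinases and 3 tissue inhibitors of metalloproteinases, measured in mouse embryonic fibroblasts. They were taken by platform gene symbol: Mmp2, Mmp3, Mmp10, Mmp11, Mmp13, Mmp14, Mmp19, Timp1, Timp2 and Timp3. The array read them with 16 of its 25697 probes, of which 14 were above background on enough arrays to be tested. These represented 9 of the 10 genes among the 9340 tested, and Mmp19 was not detected on any array. Of the genes, 6 had a single probe each, while Mmp3 and Mmp13 had 3 and Timp1 and Timp3 had 2.

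Fibroblasts from C57BL/6J embryos were either staggerer, a deletion within the nuclear receptor gene Rora, or wild type. Both genotypes grew in DMEM with fetal bovine serum and were studied after 12 h of doxorubicin and untreated. The 4 groups of 2 arrays are thus staggerer with doxorubicin, staggerer untreated, wild type with doxorubicin and wild type untreated. No dose of doxorubicin is stated in these sources. Whether paired arrays of a group are separate cultures is not stated, so p-values cover the variation from array to array alone, which could be technical. The number of cell isolates per genotype is not stated either, and genotype and isolate cannot be told apart. In a bulk sample, fewer cells of a type and less RNA per cell cannot be told apart.

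Matrix metalloproteinases are zinc-dependent proteases that cleave collagens, proteoglycans, laminin and other parts of the extracellular matrix. Most are secreted as inactive zymogens whose prodomain blocks the catalytic zinc until it is removed. The tissue inhibitors bind the active site of the mature enzymes, so the messenger RNA levels given here are not enzyme activities. Fibroblasts are a main source of both, and transcription of the collagenase and stromelysin genes is classically induced through AP-1, the dimer of Fos and Jun proteins. Doxorubicin traps topoisomerase II on DNA and causes strand breaks, and RORα is a nuclear receptor that binds AGGTCA half-sites preceded by an A/T-rich stretch.

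Mmp13, Mmp3 and Mmp10 lie in 1 cluster of 10 metalloproteinase genes on chromosome 9, in the order Mmp13, Mmp12, Mmp1b, Mmp3, Mmp1a, Mmp10, Mmp8, Mmp27, Mmp20 and Mmp7. Of the other cluster genes, Mmp1a was detected, Mmp12, Mmp1b, Mmp8, Mmp20 and Mmp7 were detected on 0 arrays, and Mmp27 had 0 probes. The promoters of the 3 detected cluster genes among the 10 described here are shown because these genes differed in how they responded. Promoter windows (RefSeq, GRCm38.p6, 250 bases before to 50 after the annotated start) were matched for 8 of the 10 genes, all but Mmp2 and Mmp19. The 100 bases before the start are printed 5′ to 3′ on the plus strand, with capitals marking matches to the AP-1 motif TGANTCA and the TATA motif TATAAA.
Mmp3, chr9:7445722-7445821: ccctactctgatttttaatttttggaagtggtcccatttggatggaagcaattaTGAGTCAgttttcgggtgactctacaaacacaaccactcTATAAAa
Mmp10, chr9:7502242-7502341: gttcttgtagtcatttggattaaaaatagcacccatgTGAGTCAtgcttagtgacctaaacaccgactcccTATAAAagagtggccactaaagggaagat
Mmp13, chr9:7272414-7272513: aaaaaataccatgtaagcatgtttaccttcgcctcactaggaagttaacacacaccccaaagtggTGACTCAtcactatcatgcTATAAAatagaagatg

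The AP-1 motif, searched on both strands, was found in 3 of 8 windows, those of Mmp3 (46 to 40 bases before the start), Mmp10 (63 to 57) and Mmp13 (35 to 29). The same motif was in 7.81% of 32851 windows of this length. The TATA motif, searched on the coding strand, was in the same 3 windows and in 8.32% of all windows. The half-site AGGTCA, searched on both strands, was in the window of Mmp10 alone, where a T preceded it. AGGTCA was in 16.3% of all windows and TAGGTCA in 2.61%. A match is a run of letters and not a measured binding site.

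**Figure D1:**
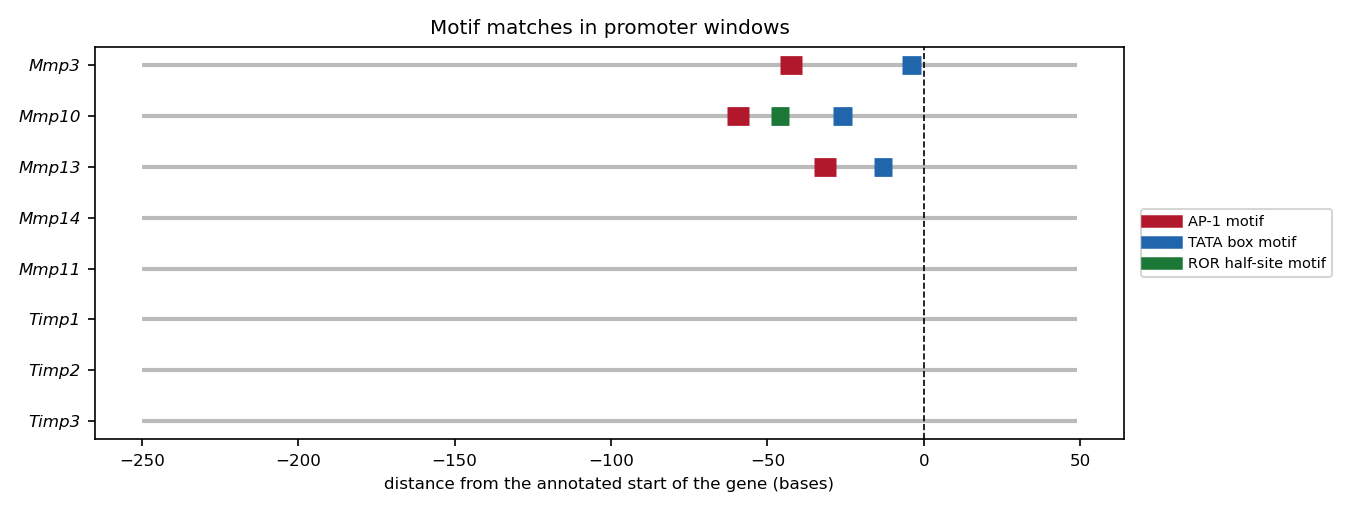
Motif positions in the promoter windows of 8 genes, in bases from the annotated start (dashed line); grey lines are the windows and coloured blocks the matches. Mmp3, Mmp10 and Mmp13 each held an AP-1 and a TATA motif upstream of the start, and the other 5 windows held neither.

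All 12 fibroblast markers were detected on at least 1 array. Their summed level on the linear scale was 70250 to 71400 in staggerer cells with doxorubicin, 64030 to 65090 in untreated staggerer, 56940 to 59460 in wild type with doxorubicin and 69550 to 70630 in untreated wild type. The staggerer doxorubicin arrays stood apart: 9246 to 9576 probes were detected on them, against 10942 to 11572 on the other arrays. Their median log2 signal over tested probes was 7.55 to 7.64, against 8.61 to 9.11. The scaling between arrays therefore moves every value that uses them, as given below. Rora had a level of 6.28 to 6.62 on the staggerer arrays and 7.80 to 8.17 on the wild type arrays, but the position of its probe relative to the deletion was not determined, so this is no check of the labels.

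Levels are log2 intensities after background correction and quantile normalization, and differences are log2 fold changes ± their standard error with limma adjusted p-values over all genes tested, called under 0.05. Levels of different probes are not compared with each other.

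Mmp3, stromelysin-1, a broad protease that also activates other pro-metalloproteinases, was several-fold higher in staggerer than in wild type cells, treated or not. Its level was 10.77 and 10.69 in staggerer cells with doxorubicin, 10.26 and 10.05 in untreated staggerer, 7.80 and 8.11 in wild type with doxorubicin, and 7.94 and 8.08 in untreated wild type. All 4 staggerer arrays lay above all 4 wild type arrays. The staggerer group means were 10.73 ± 0.05 with doxorubicin and 10.16 ± 0.15 untreated, and those of wild type were 7.96 ± 0.22 with doxorubicin and 8.01 ± 0.10 untreated (SD, n = 2). Untreated, Mmp3 was 4.41-fold higher in staggerer than in wild type cells (2.14 ± 0.15, adjusted p = 0.00021), and after doxorubicin 6.84-fold (2.77 ± 0.15, adjusted p = 1.22e-05).

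Doxorubicin raised Mmp3 by 0.58 ± 0.15 in staggerer cells (adjusted p = 0.0111), a value whose sign turns with no normalization between arrays, while the difference in wild type cells was -0.06 ± 0.15 (adjusted p = 0.765, 95% interval -0.41 to 0.29). The responses differed between the genotypes by 0.63 ± 0.21 (adjusted p = 0.0343). This call was lost with centring on all probes (0.29, adjusted p = 0.285), with no normalization between arrays (0.24, adjusted p = 0.45), and without any 1 of 5 of the 8 arrays: both untreated wild type arrays, wild type doxorubicin replicate 1, untreated staggerer replicate 2 and staggerer doxorubicin replicate 1 (adjusted p = 0.0576 to 0.111). The other 2 Mmp3 probes gave 0.88 and 0.76 for doxorubicin in staggerer cells, 1.84 and 2.01 for the untreated genotypes, and 2.69 and 3.07 after doxorubicin. Their genotype differences in response were 0.85 (adjusted p = 0.00997) and 1.06 (adjusted p = 0.00285). At all 3 probes the genotype difference was larger than the doxorubicin difference. The deposited intensities of the main probe, before any scaling, were 1297 and 1158 in staggerer cells with doxorubicin and 1423 and 1234 in untreated staggerer. They were 396 and 446 in wild type cells with doxorubicin and 537 and 495 in untreated wild type. Unscaled, the genotype difference is plain at this probe and the doxorubicin rise in staggerer cells is not seen. At the first of the other 2 probes staggerer cells read 1212 and 1317 with doxorubicin against 1097 and 1162 untreated. The last probe read 732 and 738 against 755 and 825. With no normalization between arrays the rise at the main probe became -0.13. With each array centred on the median of all probes it was 0.03 (adjusted p = 0.89).

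Mmp13, the collagenase that cleaves fibrillar collagen in mouse connective tissue, was lower after doxorubicin in wild type cells and higher in staggerer than in wild type cells. Its level was 11.85 and 11.95 in staggerer cells with doxorubicin, 12.24 and 12.08 in untreated staggerer, 10.30 and 10.27 in wild type with doxorubicin, and 11.28 and 11.36 in untreated wild type. No 2 of the groups overlapped. With doxorubicin the difference in staggerer cells was -0.26 ± 0.12 (adjusted p = 0.0887, 95% interval -0.54 to 0.02). It passed as a fall without background correction (-0.25, adjusted p = 0.0389) and with centring on all probes (-0.43, adjusted p = 0.0193). The same held with no normalization (-0.59, adjusted p = 0.0109), while with centring on tested probes it passed as a rise (0.44, adjusted p = 0.016). In wild type cells doxorubicin lowered Mmp13 2.04-fold (-1.03 ± 0.12, adjusted p = 0.000303). The difference between these responses was 0.77 ± 0.17 (adjusted p = 0.00609).

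Between the genotypes, Mmp13 was higher in staggerer cells by 0.84 ± 0.12 untreated (adjusted p = 0.00401) and by 1.61 ± 0.12 after doxorubicin (3.06-fold, adjusted p = 2.45e-05). The untreated call was lost with no normalization between arrays (0.49, adjusted p = 0.0571) and with the mean of the detected probes (0.60, adjusted p = 0.129). The deposited intensities were 3062 and 3215 in staggerer cells with doxorubicin, 4971 and 4325 in untreated staggerer, 1534 and 1454 in wild type with doxorubicin, and 3604 and 3148 in untreated wild type. The wild type fall is thus visible before any scaling, and the staggerer intensities were lower with doxorubicin as well.

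A second Mmp13 probe was dim and uneven. It read 7.86 and 8.38 in staggerer cells with doxorubicin, 6.39 and 7.79 in untreated staggerer, 5.92 and 5.80 in wild type with doxorubicin, and 6.51 and 6.95 in untreated wild type. It was not detected on either wild type doxorubicin array, so that after doxorubicin it was at least 4.42-fold higher in staggerer cells (adjusted p = 0.00221). Its difference with doxorubicin in staggerer cells was 1.03 ± 0.43 (adjusted p = 0.0665), opposite in sign to the main probe. The third probe was not detected on any array.

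Mmp10, stromelysin-2, was the only one of the 9 tested genes that passed as higher with doxorubicin in both genotypes. Its level was 7.21 and 6.79 in staggerer cells with doxorubicin, 5.49 and 5.60 in untreated staggerer, 7.30 and 7.21 in wild type with doxorubicin, and 6.01 and 6.43 in untreated wild type. It was detected on 1 of 2 staggerer doxorubicin arrays, 0 of 2 untreated staggerer arrays, 2 of 2 wild type doxorubicin arrays and 1 of 2 untreated wild type arrays. Both treated groups lay above their untreated groups. The gene was at least 1.81-fold higher with doxorubicin in staggerer cells (adjusted p = 0.000483). In wild type cells it rose 2.05-fold (1.03 ± 0.19, adjusted p = 0.00295). Without background correction both rises still passed but were smaller, 0.50 in staggerer and 0.41 in wild type cells on the log2 scale, so their size depended on the background correction. The responses differed by 0.43 ± 0.27 (adjusted p = 0.21, 95% interval -0.21 to 1.06). Between the genotypes the difference was -0.25 ± 0.19 after doxorubicin (adjusted p = 0.271). It passed as lower in staggerer cells with centring on all probes (-0.88, adjusted p = 0.00229) and with no normalization (-1.16, adjusted p = 0.000111). Untreated, Mmp10 was at least 1.05-fold lower in staggerer cells, which missed the threshold (adjusted p = 0.0628). This difference passed with both of these scalings (adjusted p = 0.0234 and 0.00257) and in an analysis without the staggerer doxorubicin arrays (adjusted p = 0.0294).

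**Figure D2:**
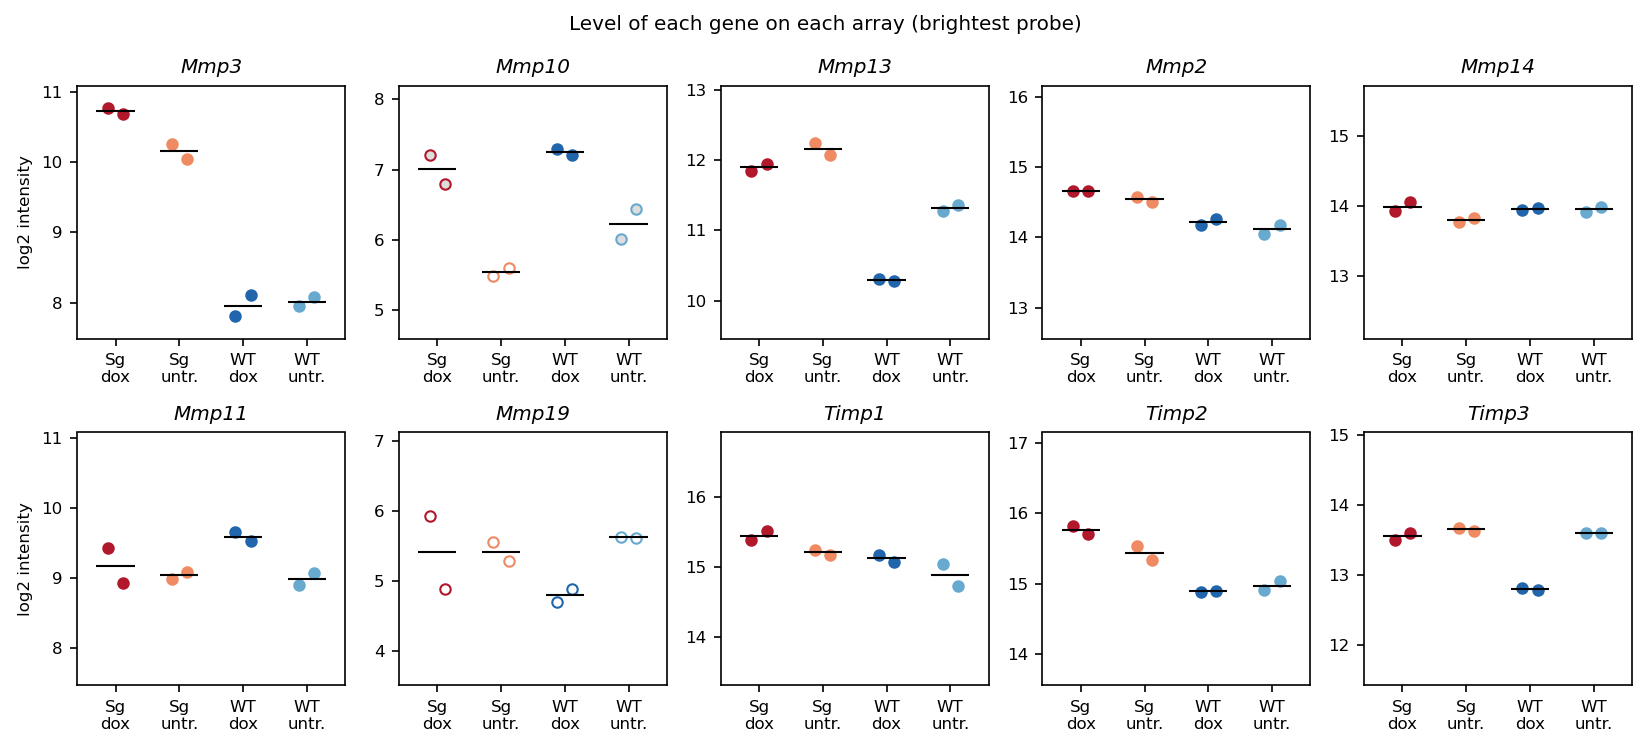
Log2 intensity of the 10 genes by group, 1 point per array and a bar at each group mean; filled points are groups detected on both arrays, grey on 1 and open on 0, and every panel spans the same range. Mmp3 separates by genotype and Mmp10 by treatment, Mmp13 is higher in staggerer cells and lowest in wild type cells with doxorubicin, and Timp3 is low in wild type cells with doxorubicin alone.

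Mmp2 and Mmp14 act together: Mmp14, the membrane-anchored MT1-MMP, activates the gelatinase pro-Mmp2 in a complex that contains Timp2. Mmp2 read 14.66 and 14.66 in staggerer cells with doxorubicin, 14.58 and 14.50 in untreated staggerer, 14.18 and 14.27 in wild type with doxorubicin, and 14.06 and 14.17 in untreated wild type. The 4 staggerer arrays lay above the 4 wild type arrays, by 0.44 ± 0.11 after doxorubicin (adjusted p = 0.00936) and 0.43 ± 0.11 untreated (adjusted p = 0.0486). Doxorubicin changed it by 0.12 ± 0.11 in staggerer cells (adjusted p = 0.38) and 0.11 ± 0.11 in wild type cells (adjusted p = 0.43), neither past the threshold. The untreated genotype call was lost under 11 of 20 alternatives. Among these were centring on all probes (0.35, adjusted p = 0.0919) and no normalization between arrays (0.13, adjusted p = 0.576). Leaving out some single arrays lost it as well, with values from 0.37 to 0.49 over the 8. The call after doxorubicin was lost without wild type doxorubicin replicate 1 (0.39). Before any scaling, untreated wild type replicate 1 and untreated staggerer replicate 2 both read 20625.

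Mmp14 did not pass in any of the 5 comparisons. It read 13.93 and 14.06 in staggerer cells with doxorubicin, 13.77 and 13.84 in untreated staggerer, 13.95 and 13.98 in wild type with doxorubicin, and 13.92 and 13.99 in untreated wild type. The 95% interval was -0.07 to 0.45 for doxorubicin in staggerer cells and -0.25 to 0.27 in wild type cells.

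Mmp11, stromelysin-3, is unusual in being activated inside the cell by furin-type convertases. It read 9.43 and 8.92 in staggerer cells with doxorubicin, 8.99 and 9.09 in untreated staggerer, 9.65 and 9.52 in wild type with doxorubicin, and 8.90 and 9.07 in untreated wild type. In staggerer cells the 2 treated arrays lay on either side of the untreated ones (0.14 ± 0.18, adjusted p = 0.521). In wild type cells it rose with doxorubicin by 0.60 ± 0.18 (adjusted p = 0.0241), and the responses differed by -0.47 ± 0.26 (adjusted p = 0.154). Staggerer minus wild type was -0.41 ± 0.18 after doxorubicin (adjusted p = 0.0759) and 0.06 ± 0.18 untreated (adjusted p = 0.88). The former passed as lower in staggerer cells with centring on all probes (-1.16, adjusted p = 0.000663) and on the authors' table (-0.33, adjusted p = 0.0269). The call for doxorubicin in wild type cells was lost when single arrays were left out. It was also lost with centring on all probes (0.41, adjusted p = 0.104) and with no normalization (0.29, adjusted p = 0.242). Under these 2 scalings the doxorubicin difference in staggerer cells passed as a fall (-0.68, adjusted p = 0.0144, and -0.84, adjusted p = 0.00353). The difference in response then passed as lower in staggerer cells (-1.09, adjusted p = 0.00886, and -1.13, adjusted p = 0.00566). Mmp19 stayed at 4.71 to 5.93 on the 8 arrays, below detection throughout.

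The inhibitors differed among themselves. Timp3, which unlike the other inhibitors stays bound to the matrix and also blocks ADAM17 and aggrecanases, fell with doxorubicin in wild type cells. Its main probe read 13.51 and 13.60 in staggerer cells with doxorubicin, 13.68 and 13.63 in untreated staggerer, 12.83 and 12.80 in wild type with doxorubicin, and 13.60 and 13.60 in untreated wild type. The 2 wild type doxorubicin arrays lay below the other 6, which lay between 13.51 and 13.68. The difference with doxorubicin was -0.10 ± 0.11 in staggerer cells (adjusted p = 0.442), against -0.79 ± 0.11 in wild type cells (1.73-fold lower, adjusted p = 0.000666). The responses differed by 0.69 ± 0.15 (adjusted p = 0.00645). Staggerer exceeded wild type by 0.75 ± 0.11 after doxorubicin (adjusted p = 0.000531), while untreated the difference was 0.05 ± 0.11 (adjusted p = 0.805, 95% interval -0.20 to 0.30).

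The second Timp3 probe gave the same pattern between the genotypes and another one within staggerer cells. It read 10.29 and 10.17 in staggerer cells with doxorubicin, 9.03 and 9.08 in untreated staggerer, 8.0 and 7.89 in wild type with doxorubicin, and 9.20 and 9.04 in untreated wild type. On it, Timp3 rose by 1.18 ± 0.12 in staggerer cells (adjusted p = 0.000218) and had -1.18 ± 0.12 in wild type cells (adjusted p = 0.000257). The difference in response was 2.35 ± 0.18 (adjusted p = 0.000275). Its deposited intensities were 912 and 790 in staggerer cells with doxorubicin and 705 and 717 in untreated staggerer, against 431 and 404 in wild type with doxorubicin and 1039 and 804 in untreated wild type. Both probes place wild type cells with doxorubicin lowest, and they disagree on whether staggerer cells responded.

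**Figure D3:**
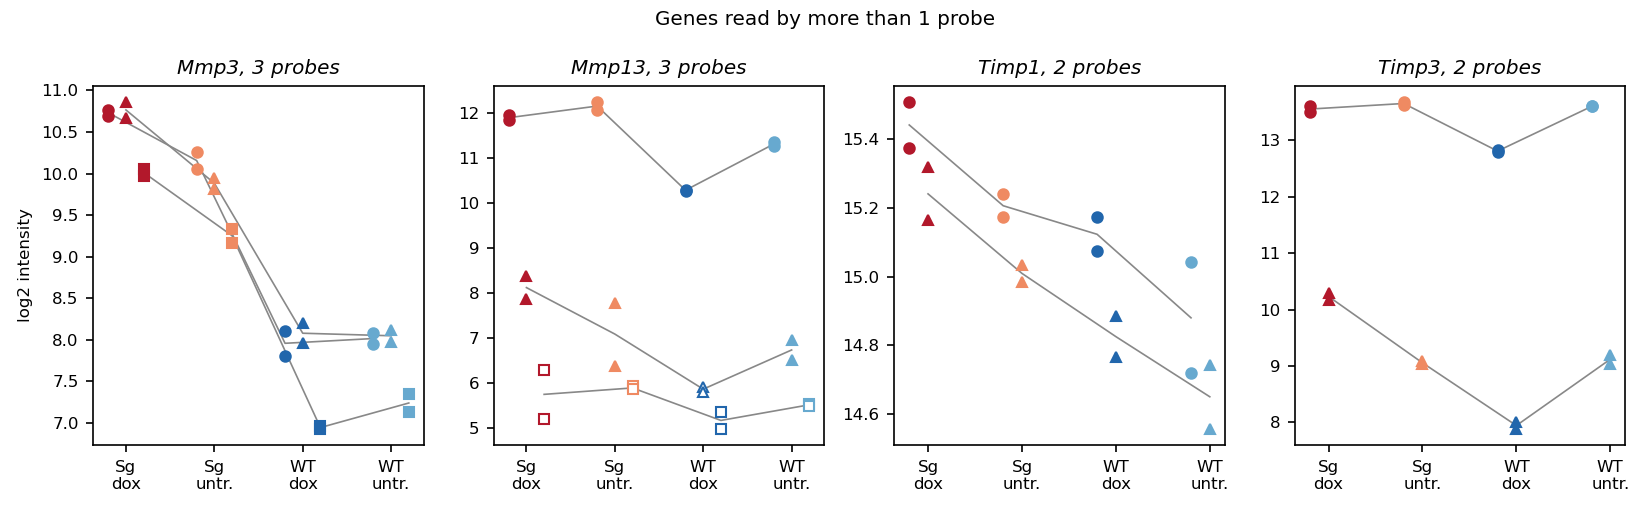
Log2 intensity at each probe of Mmp3, Mmp13, Timp1 and Timp3, 1 point per array and 1 marker shape per probe, with lines joining the group means of a probe; open points are groups in which the probe was detected on 0 arrays. All 3 Mmp3 probes are higher in staggerer cells, while the second probes of Mmp13 and Timp3 are higher in staggerer cells with doxorubicin than untreated, unlike the main probes.

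Timp2, the inhibitor that takes part in pro-Mmp2 activation, read 15.83 and 15.71 in staggerer cells with doxorubicin, 15.54 and 15.34 in untreated staggerer, 14.88 and 14.90 in wild type with doxorubicin, and 14.91 and 15.04 in untreated wild type. It was higher in staggerer than in wild type cells after doxorubicin by 0.88 ± 0.13 (1.84-fold, adjusted p = 0.000496), and by 0.82 to 2.25 over the alternatives run, the highest with centring on tested probes. Untreated, the groups did not overlap but the difference of 0.47 ± 0.13 missed the threshold (adjusted p = 0.0521). It passed under 9 of 20 alternatives, among them the analysis without the staggerer doxorubicin arrays (0.46, adjusted p = 0.0454). The rise with doxorubicin in staggerer cells was 0.33 ± 0.13 (adjusted p = 0.0496). This call was lost on leaving out any 1 of the 8 arrays (0.23 to 0.43). In wild type cells the difference was -0.08 ± 0.13 (adjusted p = 0.604). The responses differed by 0.41 ± 0.18, which missed the threshold (adjusted p = 0.0796). That difference passed under 6 of 18 alternatives, among them the authors' table (0.42, adjusted p = 0.0254). The deposited Timp2 intensities in staggerer cells with doxorubicin, 63075 and 56643, came close to the highest value on those arrays (67164 to 69449 on all 8). Whether signals there were compressed was not tested.

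Timp1, a soluble inhibitor that acts poorly on Mmp14, did not pass in any comparison. It read 15.38 and 15.51 in staggerer cells with doxorubicin, 15.24 and 15.17 in untreated staggerer, 15.17 and 15.07 in wild type with doxorubicin, and 15.04 and 14.72 in untreated wild type. Staggerer exceeded wild type by 0.32 ± 0.14 after doxorubicin (adjusted p = 0.0772) and by 0.33 ± 0.14 untreated (adjusted p = 0.187). At the second probe the difference after doxorubicin passed (0.42, adjusted p = 0.0222). For the gene it passed under 8 of 19 alternatives. Among these were the authors' table (0.32, adjusted p = 0.0216) and centring on all probes (0.97, adjusted p = 0.000752).

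Over the 9 tested genes, 3 rose and 0 fell with doxorubicin in staggerer cells, where 64.8% of all genes were called (31.8% higher and 33% lower). The median was 0.19, against 0.03 over all genes. In wild type cells 2 rose and 2 fell, where 56.6% of all genes were called (26.3% higher and 30.3% lower), with a median of 0.01 against -0.09. These counts are near or below the share over all genes.

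Between the genotypes untreated, 3 of 9 were higher in staggerer cells and 0 lower, where 12.8% of all genes were called (6.64% higher and 6.13% lower). The median was 0.33 against -0.01. After doxorubicin 5 were higher and 0 lower, where 72.4% of genes were called (32.6% higher and 39.8% lower), with a median of 0.44 against -0.14. For the difference in response, 3 were higher and 0 lower, where 58.9% were called (26.5% higher and 32.4% lower), with a median of 0.41 against -0.11. The comparisons share arrays and are not independent of each other.

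**Figure D4:**
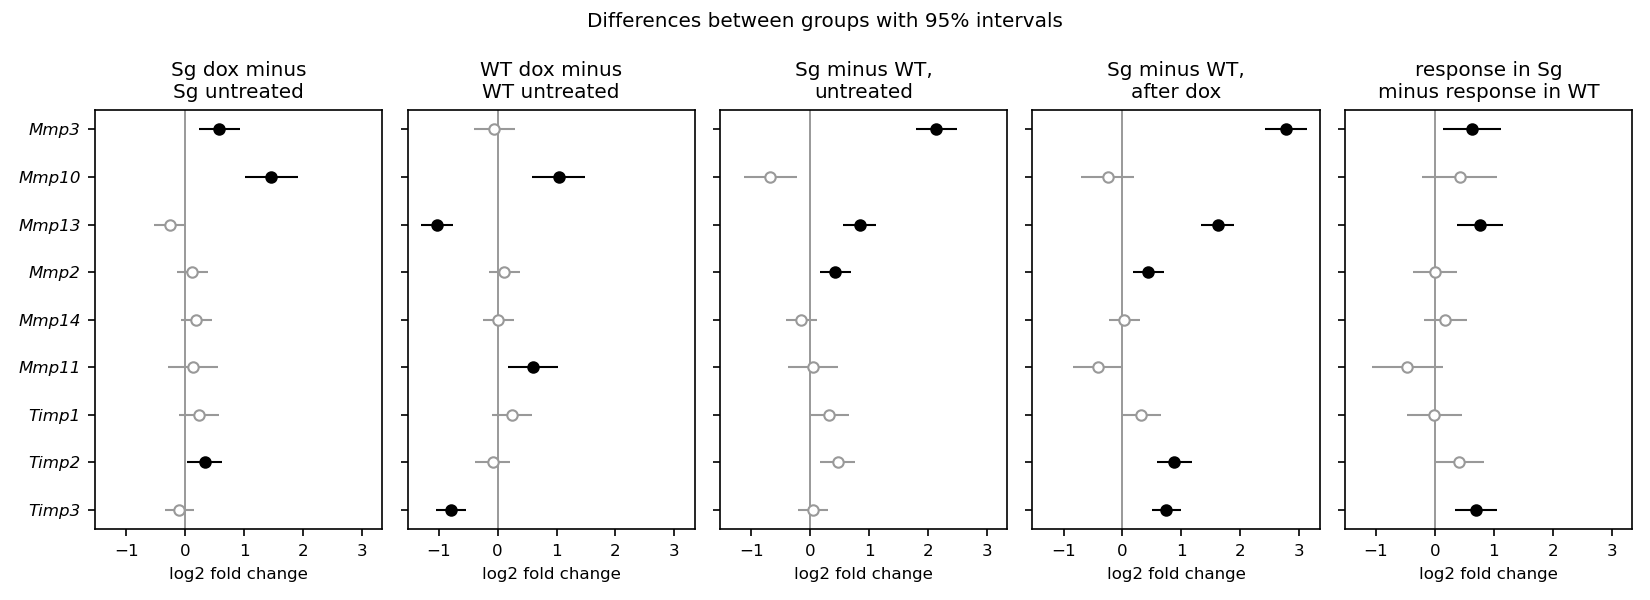
Log2 fold change of the 9 tested genes in the 5 comparisons, with 95% intervals; filled points passed at an adjusted p under 0.05. All called genotype differences lie to the right of 0, higher in staggerer cells, and the 2 called falls are those of Mmp13 and Timp3 with doxorubicin in wild type cells. The uncalled genotype differences of Mmp10, of Mmp11 after doxorubicin and of Mmp14 untreated lie to the left of 0.

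The scaling between arrays set the size of every value that includes the staggerer doxorubicin arrays. The median of all genes for doxorubicin in staggerer cells was 0.03 with quantile normalization, -0.40 with centring on the median of all probes, 0.46 with centring on the median of tested probes, and -0.56 with no normalization between arrays. Of the genes called there, 49%, 27.4%, 66.7% and 16.7% were higher, in the same order. The members called numbered 3, 7, 8 and 6, and those higher 3, 5, 8 and 4. Mmp2, at 0.12 with quantile normalization, had 1.44 with centring on tested probes, and Mmp14, Timp1 and Mmp2 passed the threshold there. Mmp13 (0.44, adjusted p = 0.016) and Timp3 (1.06, adjusted p = 8.26e-05) passed there too, as rises opposite in sign to their values with quantile normalization. The wild type response was less affected, with a median of all genes from -0.35 to -0.04 over these scalings.

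Without both staggerer doxorubicin arrays, doxorubicin in wild type cells gave -0.97 for Mmp13, -0.74 for Timp3, 1.10 for Mmp10 and 0.59 for Mmp11, all past the threshold. The untreated genotype difference was 2.12 for Mmp3 and 0.80 for Mmp13. Under all alternatives run, the Mmp13 difference in response ranged from 0.66 to 1.38 and that of Timp3 from 0.65 to 1.77, each past the threshold. That of Mmp3 ranged from 0.24 to 0.96 and was lost under 9 of 18 alternatives. The genotype difference after doxorubicin ranged from 1.98 to 3.06 for Mmp3, from 1.15 to 2.23 for Mmp13, from 0.70 to 1.93 for Timp3 and from 0.39 to 1.71 for Mmp2, whose call was lost under 1 of 19 alternatives.

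**Figure D5:**
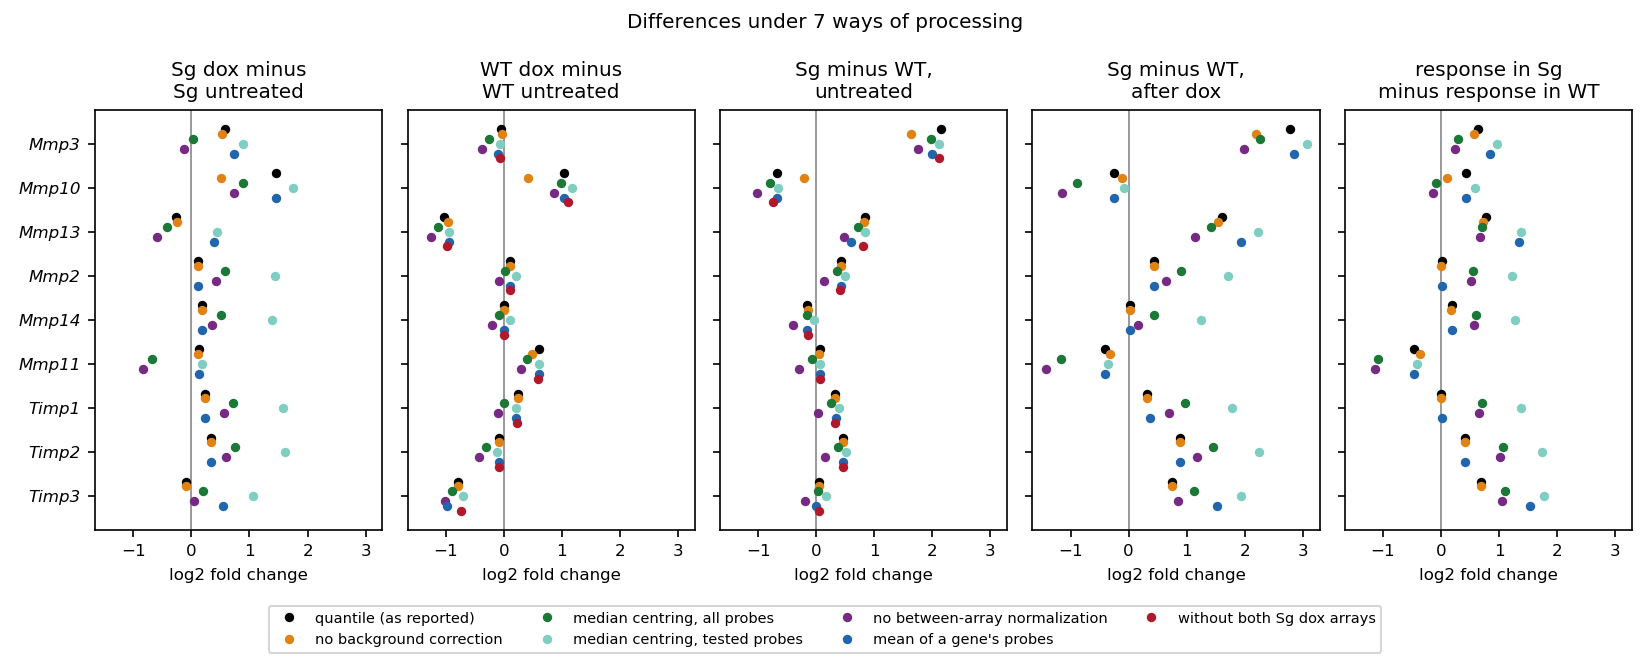
Log2 fold change of the 9 tested genes in the 5 comparisons under 7 ways of processing, 1 colour each. Values spread widely in the comparisons that use staggerer cells with doxorubicin and little for doxorubicin in wild type cells; the Mmp13 and Timp3 falls in wild type cells and the Mmp3 genotype differences keep their sign.

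Markers of other cell types differed between the groups as well. Each sum takes all genes of a list on the array, undetected ones included, so it also holds background signal. Genes are counted as detected if they were so on at least 1 array. For the mesothelial and epithelial lists 0 genes were detected on both untreated staggerer arrays. For the endothelial list 0 were detected on both arrays of either staggerer group. The summed level of the macrophage list, with 5 of 8 genes on the array detected, was 2787 to 2909 in staggerer cells with doxorubicin, 1449 to 1489 in untreated staggerer, 5680 to 6175 in wild type with doxorubicin and 5450 to 5603 in untreated wild type. Ptprc, Itgam and Mmp12 were not detected on any array. The mesothelial list, 3 of 4 detected and Lrrn4 on no array, summed to 385 to 449 in staggerer cells with doxorubicin, 145 to 159 in untreated staggerer, 1337 to 1534 in wild type with doxorubicin and 1813 to 1915 in untreated wild type. The epithelial list, 3 of 5 detected and Cdh1 and Cldn4 on no array, summed to 363 to 396, 226 to 254, 1370 to 1376 and 476 to 528 in the same 4 groups. The endothelial list, 2 of 6 detected and Pecam1, Cdh5, Kdr and Tie1 on no array, summed to 221 to 254, 251 to 273, 330 to 348 and 382 to 385. Its 1 tested gene, Emcn, was at least 2.74-fold lower in untreated staggerer cells (adjusted p = 0.000108) and at least 1.39-fold lower in staggerer cells after doxorubicin (adjusted p = 1.9e-05). The chondrocyte and osteoblast list, 3 of 7 detected and Acan, Matn1, Ibsp and Bglap on no array, summed to 2183 to 2321, 1911 to 2054, 2387 to 2562 and 2820 to 2885. The neural list, 3 of 6 detected and Tubb3, Sox2 and Gfap on no array, summed to 2473 to 2875, 1253 to 1411, 2063 to 2653 and 1000 to 1130. In it Map2 was higher in staggerer than in wild type cells, by 2.46 ± 0.15 after doxorubicin (adjusted p = 1.58e-05) and by 1.24 ± 0.15 untreated (adjusted p = 0.00241). Nes, the other gene tested in it, did not pass between the genotypes. Its differences were -0.39 ± 0.17 after doxorubicin (adjusted p = 0.0743) and -0.19 ± 0.17 untreated (adjusted p = 0.525). The fibroblast list had 8 of 12 genes lower and 0 higher with doxorubicin in wild type cells, and 4 higher and 4 lower in staggerer cells. The part of these differences in the values above was not tested.

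Of the other metalloproteinases and Timp4, 14 were on the array and 6 were tested. With doxorubicin, 4 rose and 0 fell in staggerer cells, where 31.8% of all genes rose and 33% fell. In wild type cells 1 rose and 3 fell, where 26.3% of all genes rose and 30.3% fell. Mmp16, a membrane-anchored enzyme like Mmp14, rose by 0.88 ± 0.20 in staggerer cells and fell by 1.66 on the log2 scale in wild type cells. Staggerer exceeded wild type for Mmp16 by 3.85 ± 0.20 after doxorubicin (adjusted p = 1.18e-05) and by 1.31 ± 0.20 untreated (adjusted p = 0.006). Mmp23 and Mmp1a ran the same way, with 0.84 and 0.65 in staggerer cells and -0.41 and -0.34 in wild type cells (adjusted p = 0.0347 and 0.0483). Their responses differed by 1.25 and 0.99, and that of Mmp16 by 2.54. Mmp1a was dim: it read 6.03 and 5.92 in wild type with doxorubicin and 6.28 and 6.35 in untreated wild type. The lowest detected signal was 5.94 to 6.91 over the arrays. A second Mmp1a probe read 6.41 and 5.95, and 6.19 and 6.23, in the same 2 groups. Mmp16 read 5.94 and 6.51 in wild type with doxorubicin and was detected there on 1 of 2 arrays. The sizes of its fall and of the other Mmp16 differences that use this group are therefore uncertain. Another Mmp16 probe was detected on 0 arrays. Mmp17, a glycolipid-anchored enzyme, rose in both, by 2.01 ± 0.30 in staggerer and 3.11 ± 0.30 in wild type cells. Mmp9 and Mmp28 did not pass with doxorubicin in either genotype. Over the 6, untreated staggerer had 1 higher and 0 lower than untreated wild type, and after doxorubicin 3 were higher and 2 lower, where 12.8% and 72.4% of all genes were called. Of the responses, 3 were higher and 0 lower in staggerer cells, where 58.9% of all genes were called. These shares are the background of the lists that follow as well.

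Regulators of zymogen activation at the cell surface were followed in a list of plasminogen activators, convertases and surface proteins, with 12 of 15 genes on the array tested. In staggerer cells 7 rose and 1 fell with doxorubicin, and in wild type cells 2 rose and 5 fell, where 64.8% and 56.6% of all genes were called in either direction. Plau, the urokinase that makes plasmin, rose in both, by 0.73 ± 0.12 in staggerer and 1.02 ± 0.12 in wild type cells. Klk8 rose by 1.58 ± 0.12 in staggerer cells, Lrp1, the endocytic receptor that clears proteases, by 1.60 ± 0.17, and Reck, a membrane inhibitor of metalloproteinases, by 1.25 ± 0.18. Thbs1 (-2.01 ± 0.20) and Cd44 (-0.97 ± 0.13) fell in wild type cells. Staggerer exceeded wild type after doxorubicin in 7 genes and was lower in 2, with Plaur, the urokinase receptor, higher by 1.82 ± 0.11. Untreated, 3 were higher and 2 lower, and for the difference in response 7 were higher and 0 lower.

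Matrix substrates were tested for 20 of 22 genes on the array. With doxorubicin 6 rose and 2 fell in staggerer cells, fewer of the 20 than the 64.8% called over all genes. In wild type cells 3 rose and 9 fell, where 26.3% of all genes rose and 30.3% fell. Counted in either direction, this is near the 56.6% called over all genes. Elastin (Eln) was lower with doxorubicin in both genotypes, at least 1.09-fold in staggerer cells (adjusted p = 0.000165) and with a log2 fold change of -2.73 ± 0.15 in wild type cells. The fibrillar collagen gene Col3a1 fell by 1.37 on the log2 scale in wild type cells. The laminin gene Lamb1 rose by 1.67 ± 0.15 in staggerer cells. Untreated staggerer cells had 1 higher and 4 lower, among them Eln (-2.97 ± 0.15) and the proteoglycan gene Dcn (-2.60 ± 0.13). After doxorubicin 11 were higher and 3 lower in staggerer cells, and 11 of 20 had a higher response in staggerer cells and 0 a lower one.

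AP-1, ETS and RUNX factors, the classical regulators of these genes, were tested for 12 of 12. With doxorubicin 4 rose and 7 fell in staggerer cells (median -0.70, or -0.42 with undetected genes at their bound), and 7 rose and 1 fell in wild type cells (median 0.81). The median of all genes was 0.03 and -0.09, and 64.8% and 56.6% of all genes were called. Junb fell by 0.91 in staggerer cells and rose by 1.22 ± 0.11 in wild type cells. Fosb, undetected in both untreated groups, was at least 7.41-fold higher with doxorubicin in staggerer cells and at least 6.18-fold higher in wild type cells. Jun fell by 1.84 in staggerer cells, and Fosl1 rose by 2.05 ± 0.17 in wild type cells. After doxorubicin 1 factor was higher in staggerer than in wild type cells and 9 were lower, with Junb at -1.91 ± 0.11 and Ets1 at -1.87 ± 0.11. Untreated, 0 were higher and 1, Ets2, was lower (-0.98 ± 0.12). Of the responses, 1 was higher and 8 were lower in staggerer cells.

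The genes whose levels followed a gene most closely were sought over the 8 arrays, among 5783 genes whose group means spanned at least 1 on the log2 scale. These correlations describe 4 group means measured on 2 arrays each, share one normalization and carry no p. For Mmp3 they were Abi3bp (r = 0.9991), Mdga2 (0.9983) and Klra4 (0.995). Abi3bp, an extracellular matrix protein gene, averaged 11.31 in staggerer cells with doxorubicin, 10.48 in untreated staggerer, 7.84 in wild type with doxorubicin and 7.88 in untreated wild type. For Mmp13 they were Tle6 (0.9982), Rcan2 (0.9917) and Mef2c (0.9911), with Rcan2 at 11.64, 11.84, 8.33 and 10.24 in the same 4 groups. For Timp3 they were Bbs5 (0.9972), Ptx3 (0.9962) and Emp1 (0.9961), with Ptx3, a secreted pentraxin, at 12.06, 12.40, 10.21 and 12.12.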

How the data were processed

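The deposited non-normalized table holds linear bead intensity for 25697 probes and 1124 control rows on 8 Illumina arrays; 23074 blank rows were left out. The authors' second deposited table holds log2 values, equal to quantile-normalized log2 intensity without background correction (largest difference 5.1e-09). No upstream tool is named in these sources. Using limma 3.58.1 (R 4.3.3), the intensities were corrected for background by the normal-exponential model on 1114 control rows (nec, offset 16; 10 bright rows left out), quantile normalized between arrays and put on the log2 scale. Detection was scored, per probe, as the fraction of controls reaching its signal (p). The 12362 probes with p under 0.01 on 2 or more arrays were tested, each gene by its brightest probe, giving 9340 genes, 715 of them unnamed probes.

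The linear model had a mean for each group over the 8 arrays (lmFit, eBayes; 4 residual and 3.24 prior degrees of freedom), two-sided, with Benjamini-Hochberg adjustment over all genes and a threshold of 0.05. The 5 comparisons were doxorubicin in each genotype, genotype in each condition, and their interaction. Single probes were fitted in the same way, adjusted over the probes tested. Where neither array of a group detected a probe, it has a fold written "at least", the brighter group's mean against, per array, the higher of the lowest detected signal and its own; interactions are fitted values. The number of arrays limits the precision.

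The members and the gene and marker lists were chosen with earlier results of these data known. All 10 members are reported. From each list up to 3 genes with the smallest p in a comparison are named, and all tested metalloproteinases. Genes like a member are the 3 with the highest Pearson r for members whose interaction passed. Alternatives were background correction, scaling, the authors' table, the detection filter, the mean of a gene's probes, the variance model, the replicate number as a block, only the arrays compared, and leaving out each array. Leaving out both staggerer doxorubicin arrays and centring on tested probes were added after seeing the data. Same-numbered arrays of different groups deviated with correlations of -0.03 to 0.03 after normalization. No shared deviation was seen, but this cannot show whether they were made as pairs, which is not stated.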

Additional observations from a re-analysis of the deposited data

Results flagged for a closer look

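The response to doxorubicin differed between the genotypes by the interaction test for 3 of the 9 genes, and in each the value in staggerer cells was above that in wild type cells. Over all genes 58.9% were called by this test and 26.5% were called higher, so a count of 3 among 9 is below the share called overall. For Mmp3 the difference was 0.63 (0.58 in staggerer and -0.06 in wild type cells, adjusted p = 0.0343), and the call was lost under 9 of 18 alternatives, with values from 0.24 to 0.96. For Mmp13 it was 0.77 (-0.26 in staggerer and -1.03 in wild type cells, adjusted p = 0.00609). For Timp3 it was 0.69 (-0.10 in staggerer and -0.79 in wild type cells, adjusted p = 0.00645).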

How the results depend on the processing

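Of 18 results for the 10 genes past the threshold, 11 stayed so with the same sign under every alternative run: Mmp3 between the genotypes, Mmp10 with doxorubicin in both genotypes, Mmp13 and Timp3 with doxorubicin in wild type cells, between the genotypes after doxorubicin and for the difference in response, and Timp2 between the genotypes after doxorubicin. Of the 27 that missed it, 16 passed under some alternative. With centring on all probes, on tested probes and with no normalization between arrays, 7, 8 and 6 of the 9 tested genes passed for doxorubicin in staggerer cells, against 3. With the variance trend 5 passed there, and leaving out single arrays gave 1 to 2. For the untreated genotypes 5 passed with the variance trend and also without both staggerer doxorubicin arrays, against 3, and leaving out single arrays gave 2 to 5. Of the 5 without both staggerer doxorubicin arrays, 4 were higher in staggerer cells and Mmp10 was lower. After doxorubicin 9 passed with centring on all probes, 7 higher in staggerer cells and 2 lower. With no normalization 8 passed, 6 higher and 2 lower, against 5 higher and 0 lower with quantile normalization. For the difference in response 7 passed with either centring, against 3 higher and 0 lower. With centring on all probes 6 of the 7 were higher and 1 lower, and with centring on tested probes 7 were higher. Over all genes the untreated genotype count was 1193, 2570 with no normalization, and 502 to 1679 on leaving out single arrays.

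Signs turned for doxorubicin in staggerer cells with no normalization for Mmp3 (-0.13), Mmp11 (-0.84) and Timp3 (0.040), with centring on all probes for Mmp11 (-0.68) and Timp3 (0.20), with centring on tested probes for Mmp13 (0.44) and Timp3 (1.06), and with the mean of a gene's probes for Mmp13 (0.39) and Timp3 (0.54, where the second probe rose). For doxorubicin in wild type cells they turned with no normalization for Mmp2 (-0.091), Mmp14 (-0.20) and Timp1 (-0.11), and with centring on all probes for Mmp14 (-0.089). For the untreated genotypes they turned for Mmp11 (-0.072 with centring on all probes and -0.30 with no normalization) and Timp3 (-0.19 with no normalization and -0.0055 with the mean of probes). For the difference in response they turned for Mmp10 (-0.090 with centring on all probes and -0.14 with no normalization) and Timp1 (0.71 with centring on all probes, 1.38 on tested probes, 0.66 with no normalization and 0.024 with the mean of probes). On leaving out single arrays, values ranged across 0 for Mmp11 with doxorubicin in staggerer cells (-0.12 to 0.40) and between untreated genotypes (-0.029 to 0.14), for Mmp3 (-0.21 to 0.095) and Mmp14 (-0.027 to 0.045) with doxorubicin in wild type cells, for Mmp14 between the genotypes after doxorubicin (-0.035 to 0.094), and for the response of Mmp2 (-0.052 to 0.066) and Timp1 (-0.17 to 0.15). Beyond the scalings and the mean of probes, the cause was not tested.

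With the replicate number as a block, 3 calls were lost: the difference in response of Mmp3 (0.63, adjusted p = 0.0506), Timp2 with doxorubicin in staggerer cells (0.33) and Mmp2 between untreated genotypes (0.43). No other call for the 9 genes changed. Dim probes limit Mmp10, Mmp19 and the second Mmp13 probe. Among the other metalloproteinases they limit Mmp1a, Mmp9, Mmp28, Mmp17 in untreated cells and Mmp16 in wild type cells with doxorubicin. Timp2 lies near the top of the scale.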

Other observations

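The ADAM and ADAMTS proteases, relatives of the metalloproteinases that shed membrane proteins and cleave proteoglycans, were tested for 12 of 22 genes on the array. With doxorubicin 6 rose and 3 fell in staggerer cells, and 4 rose and 6 fell in wild type cells, where 64.8% and 56.6% of all genes were called in either direction. Adam17, the sheddase that Timp3 inhibits, rose by 1.14 ± 0.13 in staggerer cells (adjusted p = 0.000258), and Adam9 by 1.24 ± 0.14. Adamts5, an aggrecanase, fell by 2.70 on the log2 scale in wild type cells (adjusted p = 8.04e-06) and was 3.09 ± 0.13 higher in staggerer than in wild type cells after doxorubicin. Adam19 and Adamts1 changed by -1.92 and -1.75 in wild type cells. Untreated, 3 genes were higher and 3 lower in staggerer cells, and after doxorubicin 8 were higher and 2 lower. Of the responses, 7 were higher and 1 was lower in staggerer cells.

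Cathepsins, the lysosomal proteases, and their cystatin inhibitors were tested for 12 of 14. With doxorubicin 8 rose and 0 fell in staggerer cells, where 31.8% of all genes rose and 33% fell. In wild type cells 5 rose and 2 fell, where 26.3% of all genes rose and 30.3% fell. Counted in either direction, both are near the 64.8% and 56.6% of all genes called. Ctsf rose in both, by 1.66 ± 0.15 in staggerer and 3.17 ± 0.15 in wild type cells. Ctsk, a cathepsin that degrades collagen, fell by 0.96 on the log2 scale in wild type cells and was 2.14 ± 0.11 higher in staggerer than in wild type cells after doxorubicin (adjusted p = 1.23e-05). Cst3, the secreted inhibitor cystatin C, was 1.13 ± 0.11 above untreated wild type in staggerer cells without treatment (adjusted p = 0.000709), where 3 of the 12 were higher and 1 lower. After doxorubicin 8 were higher and 2 lower in staggerer cells, and of the responses 7 were higher and 3 lower.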
